A study of Homo sapiens with 9 samples.

Results

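The genes described here are 8 products of the luminal cells of the prostate, chosen by symbol: the kallikreins KLK2, KLK3 and KLK4, the membrane protease TMPRSS2, and the luminal antigens ACP3, FOLH1, STEAP2 and SLC45A3. Each symbol matched 1 of the 60325 genes counted in every library, and 8 of 8 passed the filter on low counts. RNA was sequenced from LAPC4, an androgen-responsive human prostate cancer cell line, at day 30 of a study of UGT2B28, an enzyme that conjugates androgens and other steroids with glucuronic acid. There were 9 libraries, 3 in each of 3 groups, all of LAPC4 cells grown in the same medium. Rescue cells carried an overexpressed UGT2B28 on the knockdown background and were selected with 1 mg/mL G418. Knockdown-labelled cells were selected with 3 ug/mL puromycin, and control cells carried the label NT, with no drug given for them. The drug therefore differs with the label, and its effect cannot be told apart from that of UGT2B28. The labels do not state that a group's 3 libraries came from separate cultures, and a p-value then reflects library-to-library spread that may be technical. The sources used here do not give whether a group is 1 clone or what drives the added UGT2B28.

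Kallikreins are secreted serine proteases whose genes lie together on chromosome 19. In luminal cells androgens raise the transcription of KLK2 and KLK3, and the KLK3 product, prostate-specific antigen (PSA), is the serum marker of prostate cancer and cleaves the semenogelins of seminal fluid. TMPRSS2 is likewise induced by androgens, whereas FOLH1, which encodes prostate-specific membrane antigen (PSMA), is known to increase when androgen signalling is withdrawn.

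The sequences just upstream of KLK3 and KLK2 are shown because these neighbouring genes are near-copies and their ratio is compared between libraries further on. Both are from RefSeq on GRCh38.p14, plus strand, 5′ to 3′, and end at the base before the annotated start: chr19:50854665-50854914 for KLK3 and chr19:50873189-50873438 for KLK2. Capitals mark GAACA followed, after 4 bases of any kind, by GTNCT (N is any base), a loose form of the inverted repeat that steroid receptors bind.
KLK3: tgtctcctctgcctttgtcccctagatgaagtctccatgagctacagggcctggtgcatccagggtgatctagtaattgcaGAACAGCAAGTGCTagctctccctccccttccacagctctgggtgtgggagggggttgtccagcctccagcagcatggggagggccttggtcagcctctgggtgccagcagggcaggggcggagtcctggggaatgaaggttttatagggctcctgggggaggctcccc
KLK2: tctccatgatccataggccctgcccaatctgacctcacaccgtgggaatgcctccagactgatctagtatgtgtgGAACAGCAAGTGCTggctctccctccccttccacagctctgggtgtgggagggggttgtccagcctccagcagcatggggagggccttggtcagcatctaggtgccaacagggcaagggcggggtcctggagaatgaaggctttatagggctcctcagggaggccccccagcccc
The marked letters were the same in both genes, GAACAGCAAGTGCT, at bases -169 to -156 before the KLK3 start and -175 to -162 before the KLK2 start. The pattern with its free bases was chosen after the sequences had been seen, and on both strands 87 of 35116 RefSeq windows of 300 bases hold it (0.248%); the share that holds these exact 14 letters was not counted. Over the aligned 241 bases the upstream stretches were identical at 205 (85.1%). RefSeq windows were matched for 6 of the 8 genes, and those of KLK4, ACP3, STEAP2 and SLC45A3 held no such letters. A match in letters is a description and was not measured as binding.

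In the GENCODE 29 annotation (GRCh38), KLK3 lies at chr19:50854915-50860764 and KLK2 at chr19:50861568-50880567, both on the plus strand, and KLK4 at chr19:50906352-50910738 on the minus strand. The RefSeq start of KLK2 used above, 50873439, lies inside this GENCODE span, so the printed KLK2 stretch does too. For KLK3 the RefSeq and GENCODE starts are the same. TMPRSS2 lies at chr21:41464551-41531116 (minus), ACP3, named ACPP in that release, at chr3:132317367-132368298 (plus), FOLH1 at chr11:49146635-49208670 (minus), STEAP2 at chr7:90167590-90238137 (plus) and SLC45A3 at chr1:205657851-205680459 (minus). No exon of these genes overlapped an exon of another gene. KLK3 and KLK2 were identical at 668 of 783 coding bases (85.3%), with a longest shared run of 60 coding bases. In a separate search of all annotated transcripts, no 100-base stretch of either principal transcript occurred in another gene. Of 2536 such stretches in the FOLH1 transcript, 510 (20.1%) also occurred in its paralog FOLH1B, whose level was between 0.791 and 2.26 CPM (gene counts per 1000000, scaled by TMM factors). How the counting divided reads between FOLH1 and FOLH1B was not tested, and the FOLH1 level is uncertain to that extent.

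UGT2B28 was measured first, as a check of the labels. Its level was 75.1, 92.9 and 53.6 CPM in the rescue libraries, 8.48, 6.18 and 3.05 CPM in those labelled knockdown and 5.12, 5.10 and 7.80 CPM in the controls. The level was 12.6-fold higher in rescue than in knockdown-labelled cells (edgeR quasi-likelihood test, Benjamini-Hochberg adjusted p = 0.00126) and did not pass between knockdown-labelled and control cells (log2 fold change -0.045, adjusted p = 0.957). Gene counts per library ranged from 9791044 to 13983102 in rescue cells, from 8292433 to 14185252 in knockdown-labelled cells and from 8132206 to 9410048 in control cells. The knockdown-labelled libraries stood apart from each other: library 3 differed from libraries 1 and 2 with a chi-square per degree of freedom of 69.6 and 74.7, against 2.15 to 10.5 for every other pair within a group. Mitochondrial genes held 5.79% to 7.90% of counts in rescue libraries, 15.1%, 15.8% and 10.2% in knockdown-labelled libraries 1, 2 and 3, and 7.62% to 8.57% in controls. Calls of the 8 genes and of the gene lists are therefore also given for fits without knockdown-labelled library 3 and for fits with library 3 as the only knockdown-labelled library.

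The luminal keratins KRT8, KRT18 and KRT19 and the epithelial genes EPCAM and CDH1 were high in every library, with a summed level of 2990 to 3481 CPM in rescue, 2464 to 4599 CPM in knockdown-labelled and 2701 to 3319 CPM in control libraries. Of the basal markers, KRT5 was at most 1.32 CPM, KRT14 at most 2.21 CPM, NGFR at most 0.353 CPM and TP63 at most 0.199 CPM. KRT15 ranged from 48.1 to 137 CPM and ITGA6 from 28.0 to 64.3 CPM over the 9 libraries. The leukocyte gene PTPRC and the erythroid gene HBB were at 0 counts in all libraries. Summed stromal and endothelial markers were 32.2, 56.8 and 124 CPM in rescue libraries 1, 2 and 3, 40.0 to 44.4 CPM in knockdown-labelled libraries, and 26.2, 20.2 and 78.3 CPM in control libraries 1, 2 and 3, most of it COL1A1. In bulk RNA, fewer cells that express a gene and less of its RNA per cell cannot be told apart.

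Compared per length, as CPM per kilobase of the principal transcript, KLK3 had the highest level of the 8 genes in every group, with 888 in rescue, 745 in knockdown-labelled and 629 in control cells. KLK2 followed with 284 in rescue, 193 in knockdown-labelled and 165 in control cells, and its libraries did not overlap those of KLK3 in any group. A middle range held KLK4 (146, 190 and 118 in rescue, knockdown-labelled and control cells), FOLH1 (105, 121 and 95.0), TMPRSS2 (124, 79.6 and 83.0) and SLC45A3 (69.9, 68.9 and 55.7). STEAP2 (4.20, 3.16 and 3.61) and ACP3 (2.92, 3.01 and 3.94) were far below them in each group. Several neighbours in this order overlapped: KLK4 and TMPRSS2, and STEAP2 and ACP3, in rescue cells; KLK2 and KLK4, KLK4 and FOLH1, TMPRSS2 and SLC45A3, and STEAP2 and ACP3 in knockdown-labelled cells; KLK4 and FOLH1, and FOLH1 and TMPRSS2, in control cells. By the length of all annotated exons together, KLK3 was again highest in each group, but KLK4 was above KLK2 in knockdown-labelled cells (132 and 91.0) and in control cells (81.9 and 77.7), and the order of the middle genes changed as well.

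**Figure D1:**
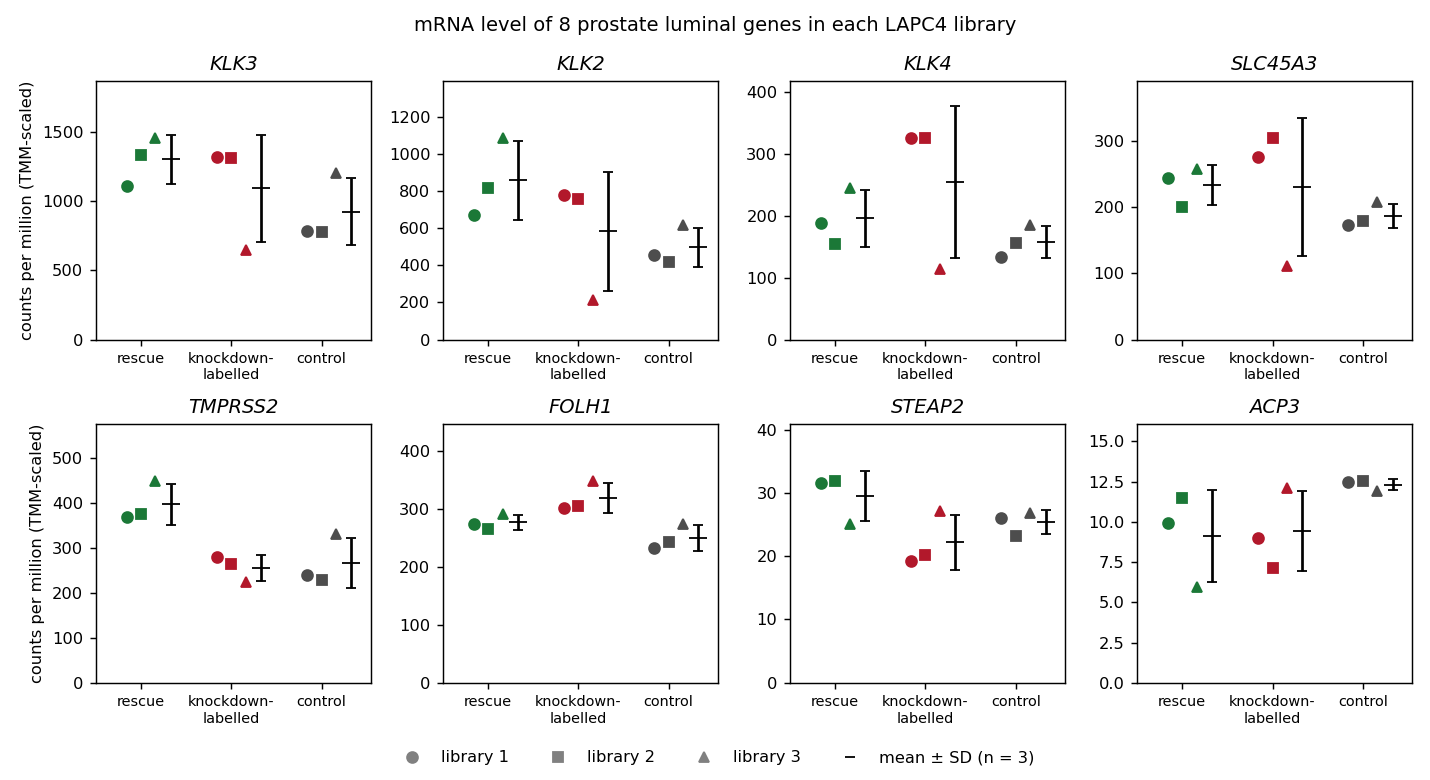
TMM-scaled CPM (y axis, each panel with its own scale from 0) of the 8 genes in the rescue, knockdown-labelled and control libraries, with points for libraries 1, 2 and 3 and bars for the mean ± SD (n = 3). KLK2, KLK3, KLK4 and SLC45A3 were lower in knockdown-labelled library 3 than in libraries 1 and 2, and the 3 rescue libraries of TMPRSS2 lay above all others.

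KLK2, a protease that can activate the PSA precursor, had 670.1, 817 and 1088 CPM in the rescue libraries, 776, 756 and 215 CPM in knockdown-labelled cells and 456, 417 and 617 CPM in the controls. All 3 rescue libraries were above all 3 controls, while knockdown-labelled libraries 1 and 2 lay above the controls and library 3 below them. The means were 858 ± 212, 582 ± 318 and 497 ± 106 CPM in rescue, knockdown-labelled and control cells (SD, n = 3 each). With all libraries KLK2 passed in no comparison (edgeR): the log2 fold change was 0.56 (SE 0.39, adjusted p = 0.383) for rescue against knockdown-labelled, 0.23 (adjusted p = 0.794) for knockdown-labelled against control, and 0.79 (SE 0.39, adjusted p = 0.517) for rescue against control.

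KLK3 had 1110.3, 1331 and 1457 CPM in the rescue libraries, 1320.2, 1306 and 646 CPM in knockdown-labelled cells and 784, 778 and 1201 CPM in the controls. Rescue overlapped both other groups, the controls only through control library 3. Mean levels were 1299 ± 175 CPM in rescue, 1091 ± 385 CPM in knockdown-labelled and 921 ± 242 CPM in control cells (SD, n = 3 each). No comparison passed: the log2 fold changes were 0.25 (adjusted p = 0.588), 0.24 (adjusted p = 0.672) and 0.50 (adjusted p = 0.578) for rescue against knockdown-labelled, knockdown-labelled against control and rescue against control (edgeR).

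KLK4, a kallikrein first known for processing enamel proteins and also made in the prostate, had 189, 154 and 245 CPM in the rescue libraries, 325, 327 and 114 CPM in knockdown-labelled cells and 134, 157 and 185 CPM in the controls. Its levels in knockdown-labelled libraries 1 and 2 were the highest of the 9 and that in library 3 was the lowest. Its log2 fold change was -0.38 (adjusted p = 0.494) for rescue against knockdown-labelled, 0.69 (adjusted p = 0.295) for knockdown-labelled against control and 0.31 (adjusted p = 0.826) for rescue against control (edgeR).

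TMPRSS2, a serine protease anchored in the cell membrane, was the member that rose in rescue cells relative to knockdown-labelled cells. It had 368, 374 and 449 CPM in the rescue libraries, 279, 263 and 223 CPM in knockdown-labelled cells and 239, 229 and 330.3 CPM in the controls. Rescue overlapped neither of the other groups, and those 2 groups overlapped each other. Against knockdown-labelled cells the log2 fold change was 0.64 (SE 0.17, 95% interval 0.27 to 1.01), a 1.55-fold higher level that passed the threshold (edgeR, adjusted p = 0.0402). Against control cells it was 0.58 (SE 0.17), which did not pass (adjusted p = 0.236), and knockdown-labelled against control was -0.060 (adjusted p = 0.878). Leaving out any 1 of control library 1 or 2, knockdown-labelled library 1 or 2, or rescue library 1, 2 or 3 ended the call for rescue against knockdown-labelled, with adjusted p from 0.0641 to 0.127 and a log2 fold change from 0.55 to 0.70. It stayed called without control library 3 (adjusted p = 0.0371) and without knockdown-labelled library 3 (0.55, adjusted p = 0.00269).

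Among the antigens, FOLH1 was the steadiest, with 275, 265 and 291 CPM in rescue libraries, 303, 305 and 349 CPM in knockdown-labelled libraries and 233, 243 and 275 CPM in controls. The knockdown-labelled libraries were all above the rescue libraries and all above the controls, without overlap, and knockdown-labelled library 3 was the highest. The log2 fold change for knockdown-labelled against control was 0.35 (SE 0.12), with an unadjusted p of 0.0155 that did not pass after adjustment (edgeR, adjusted p = 0.165). Rescue against knockdown-labelled was -0.20 (adjusted p = 0.305) and rescue against control 0.15 (adjusted p = 0.754). The PSMA protein it encodes is a membrane peptidase and the target of prostate imaging agents.

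SLC45A3, which encodes the prostate membrane protein prostein, had 244, 199 and 257 CPM in rescue libraries, 275, 305 and 111 CPM in knockdown-labelled libraries and 172, 179 and 207 CPM in controls. Like the kallikreins it was split within the knockdown-labelled group, with libraries 1 and 2 above every control and library 3 below every control. Its log2 fold changes were 0.020 (adjusted p = 0.973) for rescue against knockdown-labelled, 0.31 (adjusted p = 0.612) for knockdown-labelled against control and 0.33 (adjusted p = 0.774) for rescue against control (edgeR).

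STEAP2, a metalloreductase of intracellular and surface membranes, had 31.6, 31.9 and 25.0 CPM in rescue libraries, 19.2, 20.1 and 27.2 CPM in knockdown-labelled libraries and 26.1, 23.3 and 26.8 CPM in controls. Rescue libraries 1 and 2 were its highest, and knockdown-labelled libraries 1 and 2 its lowest. Rescue against knockdown-labelled gave a log2 fold change of 0.41 (edgeR, unadjusted p = 0.0312, adjusted p = 0.136), the other 2 comparisons -0.19 for knockdown-labelled against control and 0.22 for rescue against control.

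ACP3, prostatic acid phosphatase, was close to STEAP2 per length and rested on 60 to 151 counts per library. Its level was 9.95, 11.5 and 5.96 CPM in rescue libraries, 9.02, 7.15 and 12.1 CPM in knockdown-labelled libraries and 12.5, 12.6 and 11.9 CPM in controls. Every rescue library was below every control, the lowest being rescue library 3. The log2 fold change was -0.43 for rescue against control (edgeR, adjusted p = 0.633), -0.39 for knockdown-labelled against control (adjusted p = 0.461) and -0.036 for rescue against knockdown-labelled.

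Counted over the 8 genes, 1 passed as higher and 0 as lower for rescue against knockdown-labelled, where 9.83% of the 16796 genes tested passed in either direction, 4.44% as higher and 5.39% as lower (edgeR). At an unadjusted p under 0.05 it was 2 of 8 against 28.3%, and the DESeq2 Wald test called 1 of 8 and 16.1% of all genes. For knockdown-labelled against control 0 of 8 passed, as did 0.00595% of all genes; at an unadjusted p under 0.05 the count was 1 of 8 against 19.1% of all genes, and the DESeq2 Wald test called 1 of 8 (FOLH1) and 6.01% of all genes. For rescue against control 0 of 8 passed, with 0.149% of all genes; at an unadjusted p under 0.05 there was again 1 of 8 against 10.5%, and the DESeq2 Wald test called 0 of 8 and 1.94% of all genes. The members' counts are near these shares. Groups did not overlap for 2 of 8 genes in rescue against knockdown-labelled (TMPRSS2 higher, FOLH1 lower), where 28.6% of all genes did not overlap. The like count was 1 of 8 for knockdown-labelled against control (FOLH1 higher; 21.2% of all genes) and 3 of 8 for rescue against control (KLK2 and TMPRSS2 higher, ACP3 lower; 26.4%). The median log2 fold change of the 8 genes was 0.14, 0.24 and 0.32 for rescue against knockdown-labelled, knockdown-labelled against control and rescue against control, beside -0.0023, 0.015 and -0.0066 over all genes tested. The 3 comparisons share libraries and are not independent of each other.

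**Figure D2:**
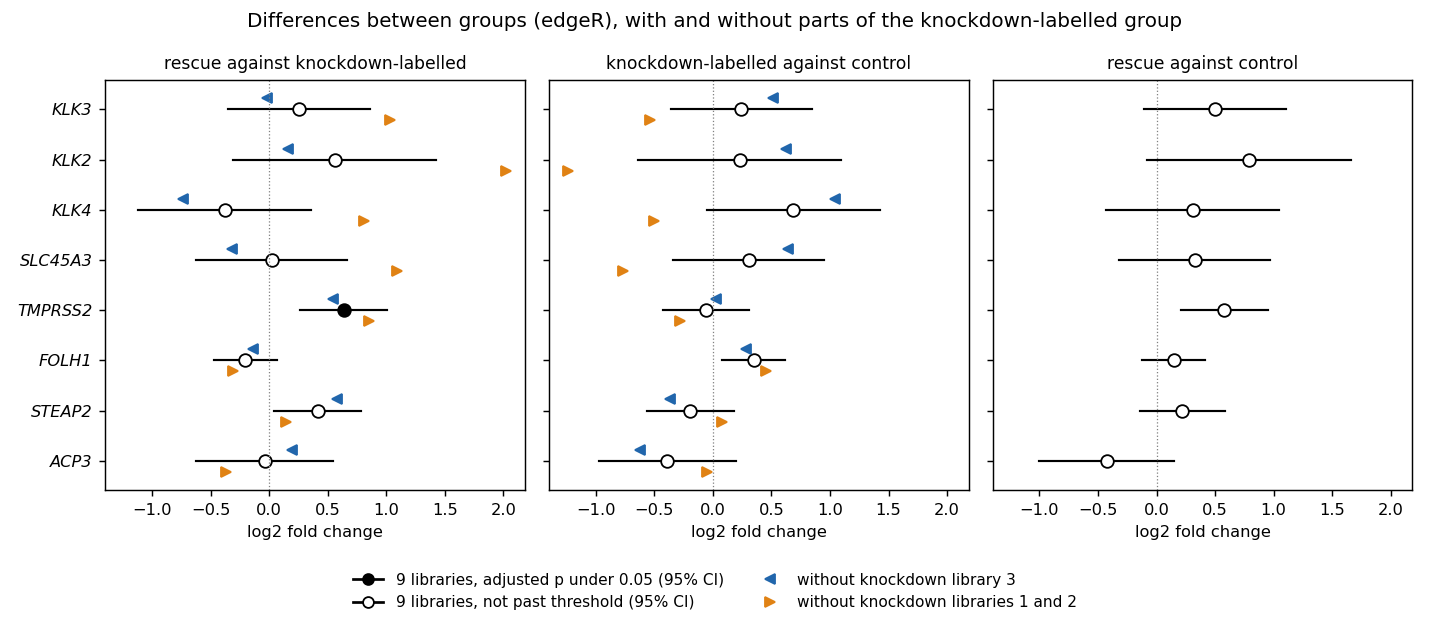
Log2 fold changes (x axis) of the 8 genes in the 3 comparisons, with circles and 95% intervals from all 9 libraries (edgeR; filled where the adjusted p was under 0.05), and triangles for the fits without knockdown-labelled library 3 or without libraries 1 and 2. The filled circle is TMPRSS2 for rescue against knockdown-labelled, at 0.64, and the triangles of KLK2 lie at 0.63 and -1.24 for knockdown-labelled against control.

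For the 3 kallikreins, SLC45A3, STEAP2 and ACP3, the range within the knockdown-labelled group was wider than the gap between any 2 group means. For TMPRSS2 and FOLH1 that range was narrower than the largest such gap. The mean of knockdown-labelled libraries 1 and 2 was 3.57 times the level of library 3 for KLK2, 2.87 times for KLK4, 2.60 times for SLC45A3 and 2.03 times for KLK3. For TMPRSS2 the ratio was 1.22. The remaining 3 genes went the other way, with library 3 at 1.49 times the mean of libraries 1 and 2 for ACP3, 1.38 times for STEAP2 and 1.15 times for FOLH1. Libraries 1 and 2 differed from each other by 1.00- to 1.26-fold in the 8 genes. A level at least 2-fold lower in library 3 was thus found in 4 of 8 genes, against 12.4% of all genes tested, and a level below both other libraries in 5 of 8, against 43.2%; the other 3 were above both, against 43.6%. Ribosomal protein genes held 12.0%, 11.5% and 6.66% of counts in knockdown-labelled libraries 1, 2 and 3, and the TMM factors were 0.793, 0.800 and 1.11. The part of these measures, and of the mitochondrial share, in the split was not tested.

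**Figure D3:**
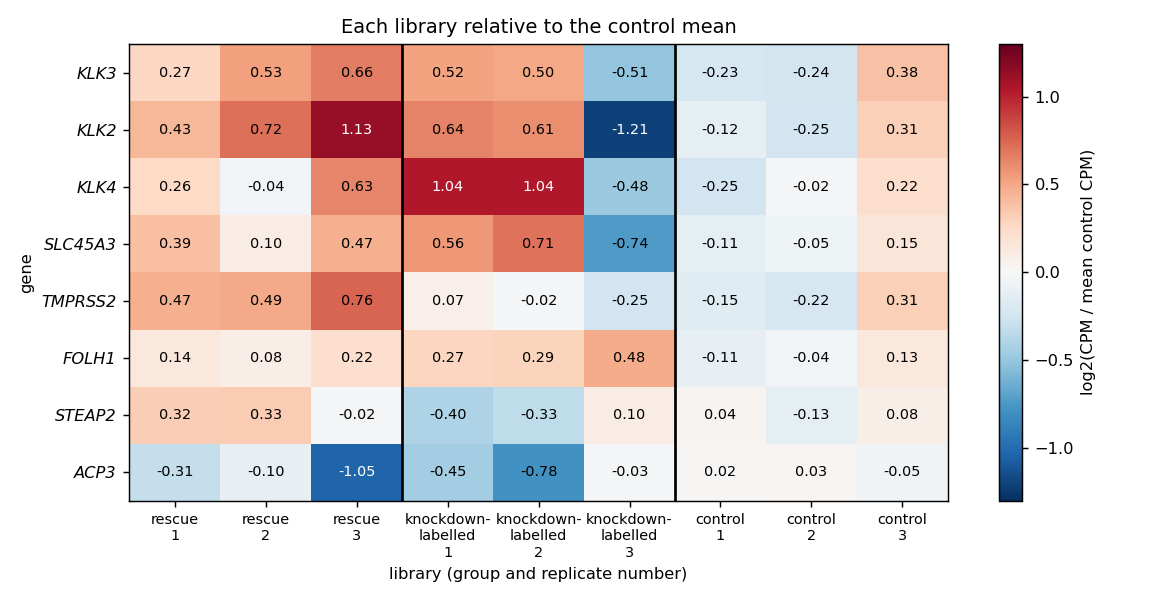
Log2 ratio of each library's CPM to the mean CPM of the 3 controls, with genes down the page and libraries across it, grouped as rescue, knockdown-labelled and control. Knockdown-labelled libraries 1 and 2 are at 0.64 and 0.61 for KLK2 and at 1.04 for KLK4, while library 3 is at -1.21 and -0.48.

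Without knockdown-labelled library 3, 5 of 8 genes passed as higher in knockdown-labelled than in control cells, where 32.9% of 17286 genes passed (edgeR). KLK4 had a log2 fold change of 1.04 (adjusted p = 2.4e-05), SLC45A3 0.64 (adjusted p = 0.00018), KLK2 0.63 (adjusted p = 0.0051), KLK3 0.51 (adjusted p = 0.011) and FOLH1 0.28 (adjusted p = 0.022). In the same fit 4 of 8 passed for rescue against knockdown-labelled, against 39.0% of all genes: TMPRSS2 (0.55) and STEAP2 (0.58) higher, KLK4 (-0.74) and SLC45A3 (-0.32) lower. With library 3 as the only knockdown-labelled library, whose spread is taken from the other groups, 3 of 8 passed for knockdown-labelled against control, against 11.4% of 18530 genes. KLK2 was lower at -1.24 (adjusted p = 0.0028), SLC45A3 lower at -0.77 (adjusted p = 0.0042), and FOLH1 higher at 0.45 (adjusted p = 0.019). For rescue against that library 5 of 8 passed as higher, against 19.5% of all genes in either direction: KLK2 at 2.02, SLC45A3 at 1.09, KLK3 at 1.03, TMPRSS2 at 0.85 and KLK4 at 0.81. The sign of KLK2, KLK3, KLK4 and SLC45A3 in knockdown-labelled against control thus turned with the library kept, whereas FOLH1 was higher in both fits and TMPRSS2 was higher in rescue than in knockdown-labelled cells in both.

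Rescue against control holds no knockdown-labelled library, but in the fit of all 9 those libraries enter the estimate of spread. Leaving out knockdown-labelled library 3 gave 3 of 8 genes higher in rescue than in control cells, against 7.38% of all genes. They were KLK2 with a log2 fold change of 0.79 (adjusted p = 0.0025), TMPRSS2 with 0.57 (adjusted p = 0.0050) and KLK3 with 0.49 (adjusted p = 0.028; edgeR). KLK2, TMPRSS2 and KLK3 also passed without libraries 1 and 2, where 5.27% of all genes did. With rescue and control libraries alone in the fit, KLK2 and TMPRSS2 passed, as did 5.87% of all genes. Control library 3 and rescue libraries 3 and 2 had the highest summed stromal markers of the 9 and, within their groups, the highest KLK2 and KLK3 levels, and the part of this in the difference was not tested.

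As a ratio that does not depend on scaling, the KLK3 share of KLK2 plus KLK3 counts was 62.4%, 62.0% and 57.2% in rescue libraries, 63.0%, 63.3% and 75.1% in knockdown-labelled libraries, and 63.2%, 65.1% and 66.0% in controls. Knockdown-labelled library 3 and rescue library 3 lay at the ends of the range, and rescue libraries were all below the knockdown-labelled and the control libraries. The means were 60.5 ± 2.85%, 67.1 ± 6.87% and 64.8 ± 1.44% in rescue, knockdown-labelled and control cells (SD, n = 3 each). The difference was -6.60 percentage points for rescue against knockdown-labelled and -4.27 percentage points for rescue against control, each with an exact two-sided permutation p of 0.1, the smallest that 3 against 3 libraries allow. Knockdown-labelled against control differed by 2.33 percentage points (exact permutation p = 0.9), or by -1.63 percentage points without knockdown-labelled library 3. Exact binomial 95% intervals, which cover counting error only, were 56.6% to 57.9% for rescue library 3 and 74.1% to 76.0% for knockdown-labelled library 3. The interval of rescue library 1 (61.8% to 62.9%) overlapped those of knockdown-labelled library 1 (62.2% to 63.7%) and control library 1 (62.3% to 64.1%).

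**Figure D4:**
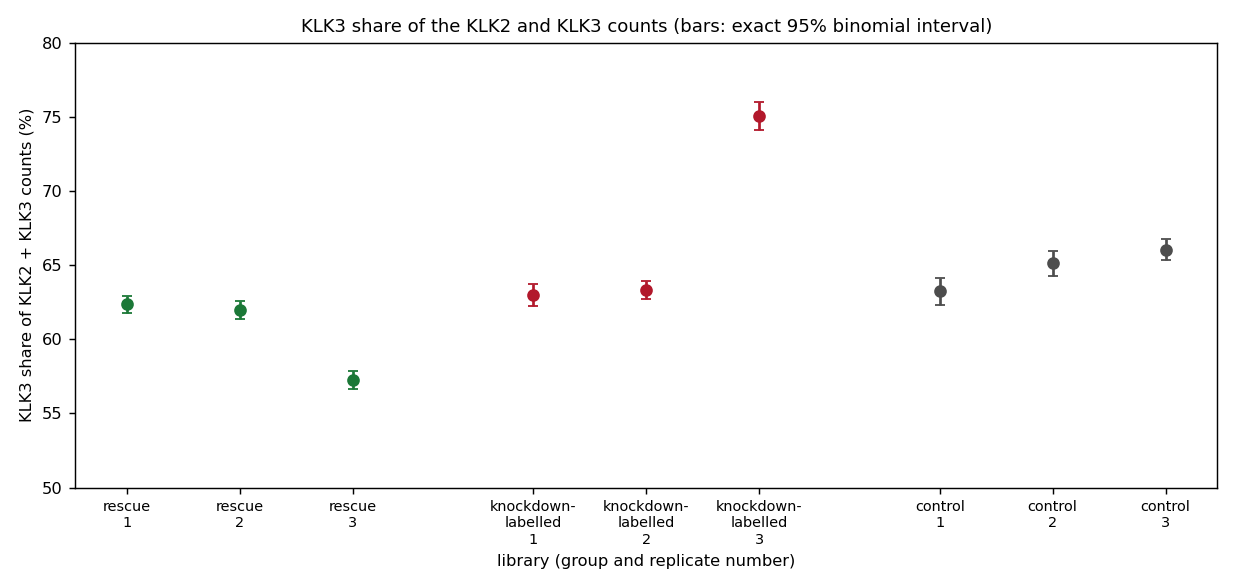
KLK3 counts as a percentage of KLK2 plus KLK3 counts (y axis from 50 to 80%) in each rescue, knockdown-labelled and control library, with exact 95% binomial intervals. Knockdown-labelled library 3 is at 75.1% and rescue library 3 at 57.2%, with the other 7 libraries between 62.0% and 66.0%.

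Together the 8 genes took 0.314%, 0.345% and 0.392% of gene counts in rescue libraries, 0.262%, 0.263% and 0.188% in knockdown-labelled libraries and 0.217%, 0.215% and 0.296% in controls. The kallikreins made up 68.0% to 73.1% of these counts in rescue libraries, 73.2%, 72.6% and 57.4% in knockdown-labelled libraries 1, 2 and 3, and 66.3% to 70.2% in controls. Every rescue library was above every other library in the summed share, which is a share of all counts, mitochondrial ones included, and not of TMM-scaled levels. This order was not kept when TMM-scaled CPM were summed over the 8 genes. On that scale knockdown-labelled libraries 1 and 2 lay above rescue libraries 1 and 2.

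Of 14 other genes named as kallikreins, KLKB1 and KLKP1 included, 11 had enough counts to be tested, KLKP1 but not KLKB1 among them. With all libraries 0 of the 11 passed in any of the 3 comparisons (edgeR). At an unadjusted p under 0.05 there was 1 for rescue against knockdown-labelled, 1 for knockdown-labelled against control and 0 for rescue against control, and the DESeq2 Wald test called KLK7 as higher in knockdown-labelled than in control cells. The highest were KLK1, with 79.6, 125 and 146 CPM in rescue, 188, 174 and 112 CPM in knockdown-labelled and 77.8, 83.2 and 156 CPM in control libraries, and KLK14, with 38.2, 38.6 and 68.9 CPM in rescue, 93.3, 91.9 and 17.1 CPM in knockdown-labelled and 24.5, 21.4 and 47.5 CPM in control libraries. KLK11 followed at 8.05 to 22.3 CPM over the 9 libraries. All 11 were lower in knockdown-labelled library 3 than in both libraries 1 and 2, beside 43.2% of all genes tested. Of the 11, 6 were below the mean of libraries 1 and 2 by at least 2-fold, beside 12.4%. Some of the 11 rested on few counts. KLK12 and KLK13, both among the 6, had 10, 8 and 4 and 30, 53 and 6 counts in knockdown-labelled libraries 1, 2 and 3. KLK5 had 18, 20 and 13 counts and KLK10 15, 20 and 12 in the same order. Without library 3, 5 of 11 passed as higher in knockdown-labelled than in control cells (KLK1, KLK6, KLK7, KLK14 and KLK15). With library 3 as the only knockdown-labelled library, 0 passed as higher and KLK11 passed as lower. For rescue against knockdown-labelled, 5 of 11 passed as lower without library 3 (KLK1, KLK5, KLK6, KLK14 and KLK15), and 3 passed as higher with library 3 alone (KLK11, KLK13 and KLK14). For rescue against control 0 passed in either fit. List counts from these fits are to be read beside the shares of all genes that passed: for rescue against knockdown-labelled, knockdown-labelled against control and rescue against control, 39.0%, 32.9% and 7.38% without library 3 and 19.5%, 11.4% and 5.27% with library 3 alone. In the same order, list counts with all libraries are to be read beside 9.83%, 0.00595% and 0.149% of all genes (edgeR). At an unadjusted p under 0.05 these shares were 28.3%, 19.1% and 10.5%, and by the DESeq2 Wald test 16.1%, 6.01% and 1.94%. KLK9 was at 0 counts in all libraries.

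Among 23 other products of prostate luminal cells, 19 were tested and 1 passed, for rescue against knockdown-labelled: LTF, which encodes lactoferrin, had 1.71, 3.32 and 1.29 CPM in rescue, 15.5, 16.2 and 13.6 CPM in knockdown-labelled and 2.45, 1.02 and 3.49 CPM in control libraries. Its log2 fold change was -2.83 for rescue against knockdown-labelled (edgeR, adjusted p = 0.0087) and 2.70 for knockdown-labelled against control (adjusted p = 0.060), and its 3 knockdown-labelled libraries were close together. The growth factor gene GDF15 and the antigen gene PSCA were among the highest of this list. GDF15 had 728, 1213 and 1496 CPM in rescue, 1139, 1050 and 181 CPM in knockdown-labelled and 334, 333 and 824 CPM in control libraries, and PSCA had 184, 187 and 224 CPM, 343, 320 and 80.5 CPM, and 145, 146 and 176 CPM in the same order of groups. Both were low in knockdown-labelled library 3. Of the 19, 15 were below both libraries 1 and 2 there, beside 43.2% of all genes tested. A level at least 2-fold below the mean of libraries 1 and 2 was found for 7 of 19, beside 12.4%. For knockdown-labelled against control, 0 of 19 passed with all libraries (edgeR; 9 at an unadjusted p under 0.05, 2 by the DESeq2 Wald test). Without library 3, 13 of 19 passed as higher, and with library 3 alone 1 passed as higher (LTF) and 4 as lower (GDF15, PRAC1, PSCA and TSPAN1). For rescue against knockdown-labelled, 10 of 19 passed as lower and 0 as higher without library 3, whereas with library 3 alone 5 passed as higher (these 4 and AZGP1) and LTF as lower. For rescue against control, 4 passed as higher and 1 as lower without library 3, and 3 as higher and 1 as lower with library 3 alone.

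Of 14 genes for luminal regulators and the androgen response, 3 rose in rescue relative to knockdown-labelled cells and 0 fell (edgeR). Of all genes tested, 4.44% passed as higher and 5.39% as lower. The 3 were ZBTB16, FKBP5 and UGT2B28, the last of which was overexpressed in rescue cells by design. These 3 also passed as higher in this comparison without knockdown-labelled library 3, where 6 of 14 were higher and 1 lower, and without libraries 1 and 2, where 5 were higher and 0 lower. ZBTB16, an androgen-induced transcription factor, had 131, 157 and 148 CPM in rescue, 71.1, 77.7 and 65.8 CPM in knockdown-labelled and 70.7, 65.7 and 98.3 CPM in control libraries (log2 fold change for rescue against knockdown-labelled 1.02, adjusted p = 0.0091). FKBP5, a chaperone induced by steroid hormones, had 344, 389 and 341 CPM in rescue, 246, 252 and 251 CPM in knockdown-labelled and 233, 242 and 327 CPM in control libraries (0.52, adjusted p = 0.049). For rescue against control UGT2B28 was the 1 gene of the list that passed, with ZBTB16 at 0.89 (adjusted p = 0.063) and FKBP5 at 0.42 (adjusted p = 0.327). Without knockdown-labelled library 3, 5 of 14 passed as higher in rescue than in control cells, UGT2B28, ZBTB16 and FKBP5 among them. With only knockdown-labelled library 1 or only library 2 left out, 0.069% of all genes passed in this comparison, and this list was not counted. For knockdown-labelled against control 0 of 14 passed with all libraries (1 at an unadjusted p under 0.05, 0 by the DESeq2 Wald test), 2 as higher and 2 as lower without library 3, and 2 as lower with library 3 alone. FOXA1, a factor that opens chromatin, lay between 703 and 816 CPM in all 9 libraries.

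Of 20 paralogs of the non-kallikrein members, such as ST14 and HPN for TMPRSS2 and STEAP1 for STEAP2, 14 were tested and 0 passed in any comparison with all libraries (edgeR). At an unadjusted p under 0.05 there were 1 for rescue against knockdown-labelled, 3 for knockdown-labelled against control and 1 for rescue against control, and the DESeq2 Wald test called STEAP4 as higher in rescue than in control cells. Without knockdown-labelled library 3, NAALADL2 and SLC45A4 passed as higher in rescue than in knockdown-labelled cells, SLC45A1, STEAP1 and STEAP4 as higher and HPN as lower in knockdown-labelled than in control cells, and STEAP4 as higher in rescue than in control cells. With library 3 alone, ST14 passed as higher in rescue than in knockdown-labelled cells and as lower in knockdown-labelled than in control cells, and STEAP4 again as higher in rescue than in control cells. Among 15 inhibitors, substrates and receptors of the secreted proteases, 8 were tested, and FN1, the fibronectin gene, was the 1 that passed and rose in rescue relative to control cells. It had 108, 114 and 95.9 CPM in rescue, 70.9, 81.4 and 98.1 CPM in knockdown-labelled and 50.5, 52.7 and 64.0 CPM in control libraries (log2 fold change for rescue against control 0.92, adjusted p = 0.045; not called by limma-voom). FN1 passed in that comparison in both fits with fewer knockdown-labelled libraries too, and as higher in knockdown-labelled than in control cells. In those fits SPINT2, a membrane-bound inhibitor, was lower in rescue than in knockdown-labelled cells without library 3 and higher with library 3 alone, with the opposite calls for knockdown-labelled against control. FN1 and SPINK5 were also higher in rescue than in knockdown-labelled cells without library 3. The semenogelin genes SEMG1 and SEMG2 and the serpin gene SERPINA3, whose product binds PSA in serum, were at 0 counts in all libraries. SPINT2 had 344 to 385 CPM in rescue, 264 to 480 CPM in knockdown-labelled and 343 to 359 CPM in control libraries.

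Likeness of pattern was measured as the root mean square difference between log2 CPM over the 9 libraries, each gene centred on its own mean. The genes compared were 4556 tested protein-coding genes with a mean of at least 10 CPM and no exon overlapping another gene. Nearest to KLK2 were HES6 (0.18) and PNPLA7 (0.20), to KLK3 PIM3 (0.085) and JUND (0.10), to KLK4 RNF208 (0.14) and EGFL7 (0.15), and to SLC45A3 CDKN2D (0.12) and SERPINH1 (0.12). TMPRSS2 was nearest to FASN (0.096), the fatty acid synthase gene, with 4470 to 4961 CPM in rescue, 2810 to 3500 CPM in knockdown-labelled and 2877 to 3872 CPM in control libraries, and to UAP1L1 (0.099). FOLH1 was nearest to CHP1 (0.064) and COPS7A (0.072), and ACP3 to TNFRSF19 (0.15) and BICRAL (0.16). STEAP2 had ACACA (0.073) as a near gene. Between members the smallest differences were 0.21 for KLK4 and SLC45A3 and 0.22 for KLK3 and SLC45A3, and KLK2 was nearest to KLK3 at 0.30. These values describe 9 libraries that share the split within the knockdown-labelled group.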

How the data were processed

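Paired-end RNA sequencing of 9 LAPC4 libraries, 3 in each group, is recorded in the labels' protocols. The submitters' processing notes name FastQC, cutadapt, STAR, HTSeq and hg38; the sources used here give no version, setting, annotation or use of strand. What was deposited is 1 unnormalized count of reads for each gene. HTSeq's summary classes were kept out of library sizes and tests: reads on no feature were 43.7% to 48.7% of counts, ambiguous reads 2.36% to 3.14% and reads with several alignments 7.67% to 11.6%.

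The main test was the quasi-likelihood F test of edgeR 4.0.16 (R 4.3.3), with group as the only term, TMM scaling and genes kept by filterByExpr at a minimum count of 10. All 9 libraries entered 1 model, which left 6 residual degrees of freedom. Benjamini-Hochberg adjustment ran over all 16796 genes tested, and a gene passed at an adjusted p under 0.05. Dividing a log2 fold change by the square root of its F gave the standard error. The procedure was tested on simulated counts. Libraries held 8132206 to 14185252 gene counts, and printed intervals of fold changes cover the spread among libraries.

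The 8 genes, the gene lists and the tests were chosen with earlier results of these data known. Genes named are the 8, up to 3 of each list that passed and up to 3 with the highest level, kallikreins with counts, UGT2B28, and the 2 genes nearest in pattern to each of the 8. Other genes of the lists were named after their values were seen. Some genes that this rule would name are not reported here. Annotation came from GENCODE release 29. Alternatives used DESeq2 1.42.0, limma 3.58.1, other scalings and filters, fewer libraries and the replicate number as a block.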

Additional observations from a re-analysis of the deposited data

How the results depend on the processing

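With 19 alternatives for each of the 8 genes, the direction and the side of the threshold were kept in 123 of 152 values when rescue was set against knockdown-labelled cells, in 125 of 152 when knockdown-labelled was set against control cells, and in 140 of 152 when rescue was set against control cells, where no direction turned. The cause of the other changes was not tested. The number of the 8 genes that passed was 1, 0 and 0 in these comparisons (9.83%, 0.00595% and 0.149% of all genes tested). It was 2, 1 and 1 with no filter on low counts (7.52%, 2.98% and 1.14% of all genes), 3, 6 and 3 with quality weights in limma-voom (41.7%, 38.9% and 9.47%), 5, 3 and 3 without knockdown-labelled libraries 1 and 2 (19.5%, 11.4% and 5.27%), and 0, 0 and 2 with only the groups compared in the fit (0.0426%, 0% and 5.87%). The DESeq2 Wald test called 1, 1 and 0 (16.1%, 6.01% and 1.94%). Leaving out 1 library at a time gave 0 to 4 (0.776% to 39.0% of all genes), 0 to 5 (0% to 32.9%) and 0 to 3 (0.00576% to 7.38%). With the replicate number as a block 0, 0 and 0 passed, and over all genes the block left 442, 0 and 4 calls against 1651, 1 and 25. The deviations of same-numbered libraries of 2 groups from their group means had correlations of -0.35 to 0.078. With 3 libraries a group and the split among the knockdown-labelled libraries, these values cannot show whether the numbers paired libraries. TMPRSS2 in rescue against knockdown-labelled lost its call in 9 of 19 alternatives (adjusted p 0.00193 to 0.127 over all of them, log2 fold change 0.54 to 0.90).

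Without scaling factors the median of all genes moved to 0.24 for rescue against knockdown-labelled and to -0.21 for knockdown-labelled against control. TMPRSS2 was 0.66 above that median in the first. Turned directions there were ACP3 0.18 and FOLH1 0.026 for rescue against knockdown-labelled, and KLK2 -0.10, KLK3 -0.045 and SLC45A3 -0.0013 for knockdown-labelled against control. Relative to the median, these 5 kept the direction of the TMM-scaled fit. Quality weights turned KLK3 to -0.011, ACP3 to 0.25 and SLC45A3 to -0.29 for rescue against knockdown-labelled and TMPRSS2 to 0.11 for knockdown-labelled against control. In the rescue against knockdown-labelled comparison, KLK3 was -0.019, ACP3 0.19 and SLC45A3 -0.32 without knockdown-labelled library 3, SLC45A3 was -0.015 without rescue library 1, ACP3 0.20 and SLC45A3 -0.040 without rescue library 3, and KLK4 0.81 without knockdown-labelled libraries 1 and 2. With any 1 library left out the range was -0.019 to 0.41 for KLK3, -0.23 to 0.20 for ACP3 and -0.32 to 0.27 for SLC45A3. For knockdown-labelled against control, TMPRSS2 was 0.13 without control library 3 and 0.028 without knockdown-labelled library 3, and KLK2 was -0.031 and -0.0037 without knockdown-labelled library 1 or 2. Without both of these, KLK2 was -1.24, KLK3 -0.54, KLK4 -0.51, STEAP2 0.074 and SLC45A3 -0.77. With any 1 library left out the range was -0.031 to 0.63 for KLK2 and -0.16 to 0.13 for TMPRSS2.

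The difference in KLK3 share ranged, with 1 library left out, from -8.67 to -2.63 percentage points for rescue against knockdown-labelled, from -1.63 to 4.40 when knockdown-labelled was set against control, and from -5.19 to -2.63 when rescue was. Depth limits ACP3 most, at 60 to 151 counts per library.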
